A study of Mus musculus with 12 samples.

Results

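The inflammatory chemokine genes described here are Cxcl9, Cxcl10, Ccl5, Ccl3, Ccl4, Ccl8, Ccl2 and Cx3cl1, together with the chemokine receptor gene Cxcr3. They were chosen by symbol, and each was read by 1 non-control probe, so they make 9 of the 17016 genes with a symbol on the array. Islets were cut by laser from frozen pancreas sections of 6 NOD mice, an inbred strain prone to autoimmune diabetes, and of 6 NOD.B10 mice, which share the NOD background but carry a different MHC haplotype and served as the healthy control. All mice were female and 12 weeks old, and the labels name no treatment for either strain. Sections of at least 40 islets were pooled per sample, and the RNA was amplified, labelled with Cy5 and hybridised with a Cy3-labelled mouse universal reference RNA, with no dye swap. The labels number 6 samples per strain and tie no array to a named animal, and 1 array per mouse is read from the stated 6 mice per strain. A captured islet holds its endocrine cells, vessels and any leukocytes within it, and a histological score of the infiltrate is not given in the sources used here. The 9 genes lie on chromosomes 5 (Cxcl9, Cxcl10), 8 (Cx3cl1), 11 (Ccl2, Ccl3, Ccl4, Ccl5, Ccl8) and X (Cxcr3), so none lies on the chromosome that carries the mouse MHC.

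Chemokines are small secreted proteins that direct the migration of leukocytes through G protein-coupled receptors. Cxcl9 and Cxcl10 are induced by interferon-gamma and act on CXCR3 of activated T and NK cells, whereas the CC chemokines act on receptors of monocytes, dendritic cells and T cells. In islets of autoimmune diabetes, chemokines made by endocrine cells, vessels and leukocytes are known to draw in further leukocytes, an infiltrate called insulitis.

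The islet channel itself differed between the strains. The scanner software marked Cy5 as well above background for 10.7 to 17.3% of spots on the NOD arrays and for 3.96 to 7.88% on the NOD.B10 arrays. Net Cy5 here is the median signal minus the median local background, in scanner units and unscaled. Over the 1083 probes marked so on all 12 arrays, it was higher in NOD by a median of 1.65 on the log2 scale. The beta cell genes Ins1, Ins2 and Iapp gave such a signal on all 12 arrays, and the duct markers Krt19, Krt7 and Sox9 on none. The arrays lay on 4 slides. Slide 1 held NOD replicates 1 and 2 alone, slide 4 held NOD.B10 replicates 2 and 3 alone and was read on another day, and slides 2 and 3 held 2 mice of either strain.

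None of the 9 genes had a Cy5 signal well above background on any NOD.B10 array, whereas 5 of them, Cxcl9, Cxcl10, Ccl5, Ccl8 and Cxcr3, did so on all 6 NOD arrays. The reference channel read all 9 well above background on all 12 arrays, so the probes themselves gave signal. Of the 7 genes that could be tested, 6 were higher in NOD (Cxcl9, Cxcl10, Cxcr3, Ccl5, Ccl4 and Ccl8) and 1, Cx3cl1, was lower in the ratio to the reference, by limma's moderated test at a Benjamini-Hochberg adjusted p under 0.05 over 3920 genes. Across all tested genes 18.8% were higher and 18.1% lower. The filter asked for a Cy5 signal well above background on 4 or more arrays of the 12, and all 7 passed through NOD arrays alone, so their count carries no weight of its own. Among the 1220 tested genes with no such signal on the NOD.B10 arrays, 28.6% were higher in NOD and 9.43% lower. Ccl2 and Ccl3, each well above background on 3 NOD arrays, did not pass this filter. The share of all tested genes whose strains do not overlap was not computed, nor that with a signal on all 6 NOD arrays. Neither trait is therefore read as particular to these genes, here or below.

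**Figure D1:**
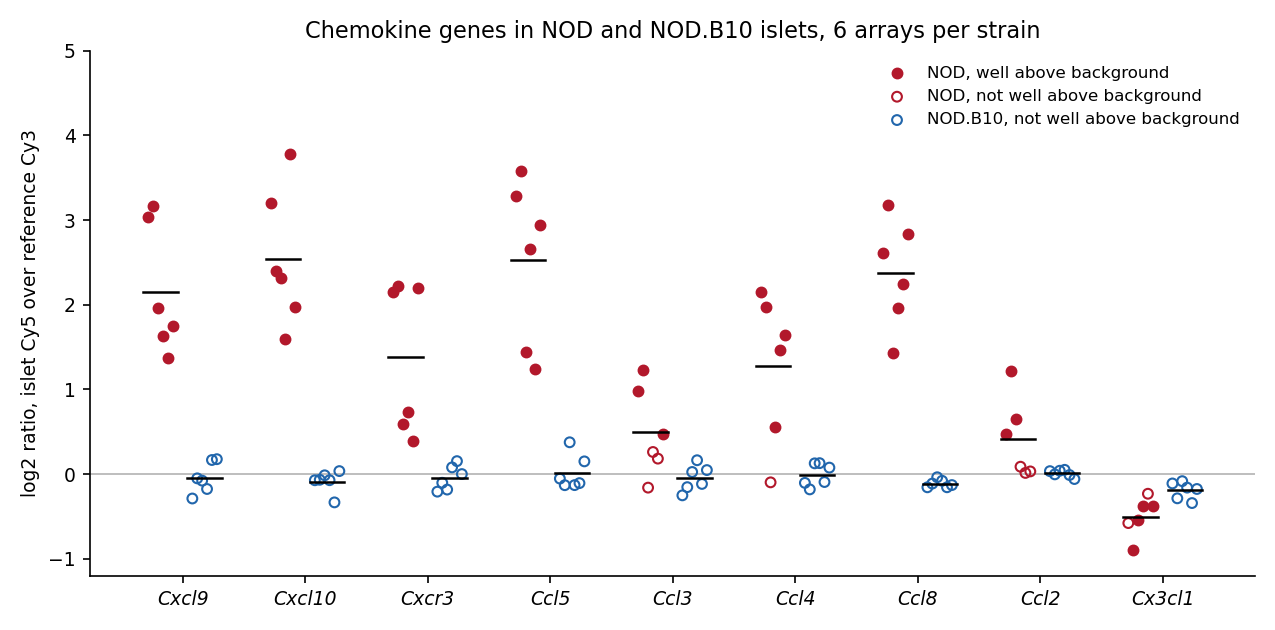
Log2 ratio of islet Cy5 to reference Cy3 after loess (vertical axis) for the 9 genes, with the 6 NOD arrays left of the 6 NOD.B10 arrays, filled points for arrays well above background and bars at the means. Cxcl9, Cxcl10, Cxcr3, Ccl5 and Ccl8 have every NOD point above every NOD.B10 point, while Ccl3, Ccl4, Ccl2 and Cx3cl1 overlap. How many of all genes do so was not computed.

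Cxcl9 and Cxcl10 lie close to each other on chromosome 5 and were the CXCR3 ligands among the members. Only their promoters are printed, and the windows found for other members were searched in the same way. The 250 bases before each start site are those of RefSeq on build GRCm38.p6, both genes being on the minus strand, for Cxcl9 at chr5:92328080-92328329 and for Cxcl10 at chr5:92348890-92349139. Capitals mark matches, on either strand, to the interferon-stimulated response core (GAAA, any 2 bases, GAAA) and to the kappaB consensus. No match to the interferon-gamma activated site TTCNNNGAA was found in either window.
Cxcl9: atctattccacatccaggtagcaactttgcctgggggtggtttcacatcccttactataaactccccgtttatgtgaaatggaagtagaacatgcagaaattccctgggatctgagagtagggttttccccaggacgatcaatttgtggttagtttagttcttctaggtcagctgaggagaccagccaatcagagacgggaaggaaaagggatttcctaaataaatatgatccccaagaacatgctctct
Cxcl10: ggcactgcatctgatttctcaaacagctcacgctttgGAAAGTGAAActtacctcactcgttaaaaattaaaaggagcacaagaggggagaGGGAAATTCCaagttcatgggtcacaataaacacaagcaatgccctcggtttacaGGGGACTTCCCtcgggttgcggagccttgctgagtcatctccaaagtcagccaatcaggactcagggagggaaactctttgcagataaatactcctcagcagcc
The Cxcl10 window held the response core 213 to 204 bases before the start and kappaB matches at 159 to 150 and, overlapping each other, at 104 to 94 bases before it. The Cxcl9 window held none of these letter patterns, nor did those of Ccl8, Ccl3, Cx3cl1 and Cxcr3. Of 27025 RefSeq promoter windows of this length, 3.06% held the response core, 7.07% the kappaB consensus and 7.11% the activated site. Ccl5, Ccl2 and Ccl4 had no entry.

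For Cxcl9, the log2 ratio of islet to reference was lowest at 1.37, median 1.86 and highest 3.17 in NOD, against -0.29, -0.06 and 0.18 in NOD.B10. The strains did not overlap, and NOD replicates 1 (3.03) and 2 (3.17) stood above the other 4 NOD arrays, which lay at or below 1.96. Unscaled net Cy5 ran from 42.5 to 152.5 in NOD and from -4.5 to 5.5 in NOD.B10, so the control islets were at the level of the local background. A ratio near 0 in NOD.B10 therefore marks a spot with almost no islet signal: its net Cy5 was 91.7% of net Cy3 in NOD and 0.939% in NOD.B10. Loess sets the bulk of spots to 0, and most spots of these arrays have little Cy5. The log2 change was 2.19 ± 0.29 (SE, n = 6 per strain, limma adjusted p = 0.000156). Because NOD.B10 was not measured above background, the change in normalised Cy5 is given as a lower bound, at least 1.68-fold. For this bound the NOD mean of normalised Cy5 was set against the NOD.B10 mean with every array raised to the 10th percentile of its signals well above background. Here and below, such a bound is a ratio of group means of Cy5, without sampling error, and need not hold under other normalisations. Its Cy5 values were taken after loess and a further quantile normalisation of intensities between arrays. It therefore concerns islet Cy5 and not the ratio to the reference. With the lowest signal well above background as the floor, the bound was 3.17-fold. Fewer cells that express a gene and less of its RNA per cell cannot be told apart in these pooled sections, here and below.

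Cxcl10, the other CXCR3 ligand, had log2 ratios of 1.60 at the lowest, 2.35 at the median and 3.77 at the highest in NOD, and of -0.33, -0.07 and 0.04 in NOD.B10. The groups did not overlap. The order of the NOD mice differed from that of Cxcl9: Cxcl10 was highest on replicate 5 (3.77), the array on which Cxcl9 was lowest (1.37), and was lowest on replicate 4 (1.60). Net Cy5 was 58.0 to 218 in NOD and -5.0 to 3.0 in NOD.B10. Normalised Cy5 was at least 3.02-fold higher in NOD. The log2 change of the ratio was 2.63 ± 0.30 (SE, n = 6 per strain, limma adjusted p = 6.16e-05).

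Cxcr3, the receptor of both ligands on activated T and NK cells, had log2 ratios of 0.39, 1.44 and 2.22 (lowest, median, highest) in NOD and of -0.21, -0.05 and 0.15 in NOD.B10. The NOD arrays fell apart, with replicates 1, 2 and 6 at 2.15, 2.22 and 2.19 and replicates 3, 4 and 5 at 0.59, 0.73 and 0.39, yet all 6 stood above NOD.B10. Net Cy5 was 12.5 to 78.5 in NOD and -2.0 to 5.0 in NOD.B10. The log2 change was 1.42 ± 0.33 (SE, n = 6 per strain, limma adjusted p = 0.00466), with no fold, since its bound was not above 1, and with the lowest signal as the floor the bound was 2.12-fold. Cxcr3 lost its call with slide as a fixed block (log2 change 0.97, adjusted p = 0.052).

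Ccl5, also known as RANTES, is made by activated T and NK cells and acts on receptors such as CCR1 and CCR3. Its log2 ratios were 1.24, 2.80 and 3.58 (lowest, median, highest) in NOD and -0.13, -0.08 and 0.38 in NOD.B10, without overlap. Replicates 3 (1.44) and 5 (1.24) were the low NOD arrays, and the other 4 lay between 2.66 and 3.58. Net Cy5 was 38.5 to 248 in NOD and -1.0 to 9.5 in NOD.B10. Normalised Cy5 was at least 2.38-fold higher in NOD, and 4.01-fold with the lowest signal as the floor. The log2 change of the ratio was 2.51 ± 0.36 (SE, n = 6 per strain, limma adjusted p = 0.000283).

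Ccl4 and Ccl3 encode the macrophage inflammatory proteins 1 beta and 1 alpha, which T cells, NK cells and macrophages release on activation. Ccl4 had log2 ratios of -0.10, 1.55 and 2.15 (lowest, median, highest) in NOD and of -0.18, -0.01 and 0.13 in NOD.B10. A single NOD array, replicate 3, lay within the NOD.B10 range, with a net Cy5 of 0 and no signal well above background. The log2 change was 1.29 ± 0.32 (SE, n = 6 per strain, limma adjusted p = 0.00737), with no fold because the bound was not above 1. Ccl3 was well above background on NOD replicates 1, 2 and 6 alone, with log2 ratios of 0.98, 1.22 and 0.48, while replicates 3, 4 and 5 had -0.16, 0.26 and 0.18. Its NOD.B10 ratios ran from -0.25 to 0.16, so the strains overlapped. Net Cy5 of Ccl3 was -1.0 to 35.0 in NOD and -2.5 to 5.0 in NOD.B10. In a fit without the filter, Ccl3 did not pass (log2 change 0.54, limma adjusted p = 0.11).

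Ccl8, a monocyte chemotactic protein that in mice acts on CCR8, was well above background on all 6 NOD arrays. Its log2 ratios were 1.43, 2.43 and 3.18 (lowest, median, highest) in NOD and -0.16, -0.12 and -0.04 in NOD.B10, without overlap. Replicate 3 was the lowest NOD array and replicate 2 the highest. Net Cy5 was 44.5 to 236.5 in NOD and -1.0 to 1.0 in NOD.B10. Normalised Cy5 was at least 2.29-fold higher in NOD, and 3.94-fold with the lowest signal as the floor. The log2 change of the ratio was 2.49 ± 0.24 (SE, n = 6 per strain, limma adjusted p = 1.75e-05).

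Ccl2, the monocyte chemoattractant protein 1 that acts on CCR2, was read by 10 spots of its probe on each array. It was well above background on NOD replicates 1, 2 and 3, with log2 ratios of 0.47, 1.21 and 0.65, while replicates 4, 5 and 6 had 0.09, 0.01 and 0.03. NOD.B10 ratios ran from -0.06 to 0.05, and the strains overlapped. Net Cy5 was 2.94 to 42.8 in NOD and 0.75 to 2.61 in NOD.B10, without overlap. Without the filter it did not pass (log2 change 0.40, limma adjusted p = 0.192). The 3 NOD arrays with a Ccl2 signal were not the 3 with a Ccl3 signal, since replicate 3 had Ccl2 without Ccl3 or Ccl4, and replicate 6 had Ccl3 and Ccl4 without Ccl2.

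Cx3cl1, or fractalkine, is a membrane-bound chemokine of endothelial and epithelial cells that binds CX3CR1. It was the member called lower, with log2 ratios of -0.90, -0.46 and -0.23 (lowest, median, highest) in NOD and of -0.34, -0.17 and -0.08 in NOD.B10, and the strains overlapped. The log2 change was -0.31 ± 0.11 (SE, n = 6 per strain, limma adjusted p = 0.048), close to the threshold. Its unscaled net Cy5 ran the other way, at 4.0 to 14.5 in NOD and 0 to 5.0 in NOD.B10. Net Cy3 averaged 911 in NOD and 900 in NOD.B10, so Cy5 was 1.04% of Cy3 in NOD and 0.25% in NOD.B10. Of 756 tested genes whose Cy5 was under 1% of Cy3, 522 (69.0%) were called lower, and 3 were called higher. The sign of Cx3cl1 turned with the scanner's own processed ratios (0.85), with median centring (0.22) and with Cy5 alone (0.11), and relative to the median of all genes, which these settings moved to 0.48, 0.44 and 0.09, it was 0.38, -0.22 and 0.01. The call was lost when any array other than NOD replicate 5 was left out, with log2 changes from -0.34 to -0.23 and adjusted p from 0.0503 to 0.0958 by limma. No direction is read for Cx3cl1.

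**Figure D2:**
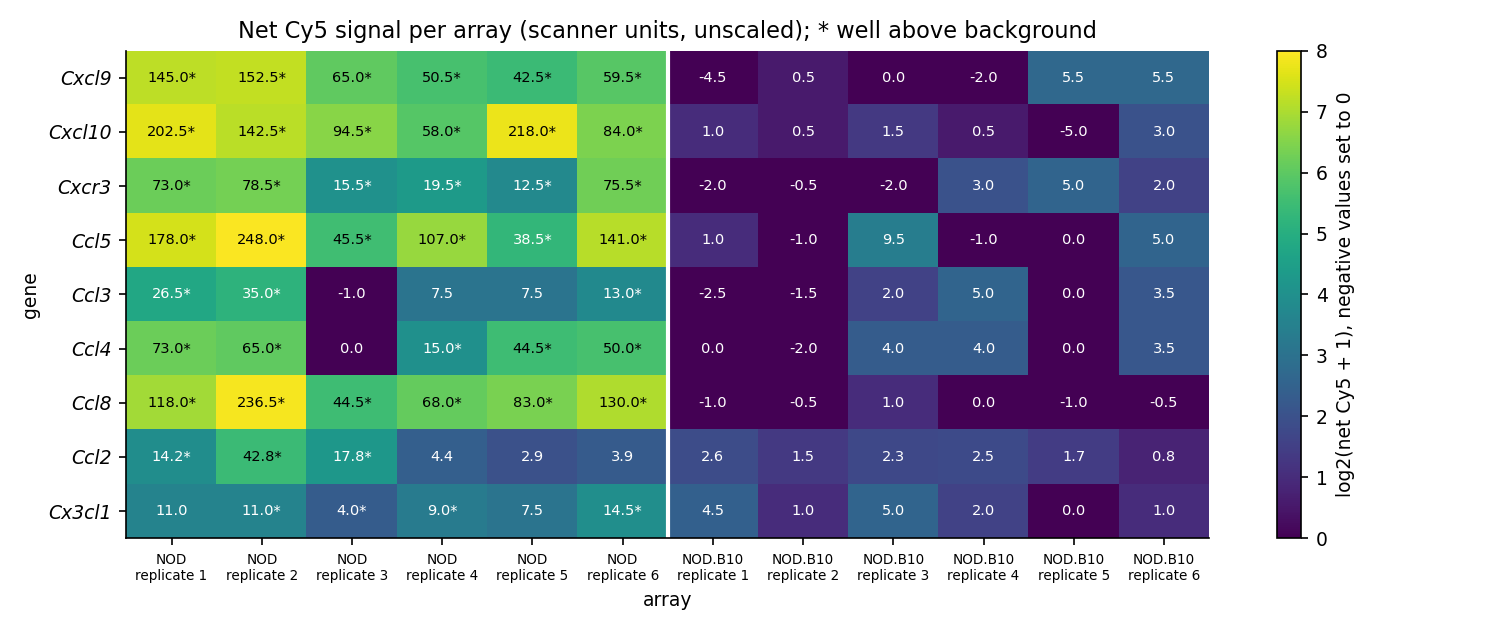
Unscaled net Cy5 signal in scanner units for the 9 genes (vertical) on each array (horizontal, NOD left of NOD.B10), with colour on a log2 scale and an asterisk where the signal was well above background. No NOD.B10 cell carries an asterisk, and no NOD.B10 value exceeds 9.5.

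Among the 6 NOD mice the members did not share a single order. Replicate 2 was highest for 6 of the 9 genes (Cxcl9, Ccl5, Ccl8, Ccl2, Ccl3 and Cxcr3) and replicate 1 for Ccl4, both on slide 1. Replicate 5 was lowest for 4 (Cxcl9, Ccl5, Ccl2 and Cxcr3) and highest for Cxcl10 and Cx3cl1. These arrays also differed in overall islet signal, with 16.5% and 17.3% of spots well above background in Cy5 on replicates 1 and 2, against 10.7% on replicate 5. Over the 6 NOD arrays, the log2 ratio of Ccl5 followed this share (Pearson r = 0.93, exact 2-sided permutation p = 0.00278, 0.025 after Benjamini-Hochberg adjustment over the 9 genes; Spearman rho = 1, the same p values). Without replicates 2 and 5, the farthest from the median share, r was 0.83. For Cxcr3 r was 0.92 (rho 0.94) and the adjusted exact permutation p was 0.05 for both, and for Cxcl9 r was 0.91 (rho 0.83) with adjusted exact permutation p of 0.0563 and 0.131. Ccl3 had r = 0.90 (rho 0.94) with adjusted exact permutation p of 0.0563 and 0.05. Without the same 2 arrays, r was 0.90 for Cxcr3, 0.80 for Cxcl9 and 0.96 for Ccl3. Ccl8, Ccl2 and Ccl4 had r of 0.74, 0.65 and 0.64, none past 0.05 by the exact permutation test, and 0.82, -0.03 and 0.96 without these 2 arrays. Cx3cl1 ran the other way, with r = -0.82 and rho = -0.77 (adjusted exact permutation p = 0.08 and 0.132), and r = -0.35 without them. Cxcl10 had r = -0.18 and rho = -0.09 (exact permutation p = 0.711 and 0.919), and r = 0.74 without the same 2 arrays, so its value rests on them, as does that of Ccl2. No slide held more than 2 NOD arrays, so the relation could not be computed within a slide. Brightness of the array was not tested apart from its slide.

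Within slides, where strains were side by side, 6 genes kept a positive difference. The log2 changes on slide 2 alone and slide 3 alone (2 mice per strain each) were 2.03 and 1.39 for Cxcl9, 2.03 and 3.02 for Cxcl10, 2.14 and 2.07 for Ccl5, and 1.81 and 2.68 for Ccl8. They were 0.72 and 1.22 for Cxcr3, 0.22 and 1.56 for Ccl4, and -0.33 and -0.05 for Cx3cl1. Ccl4 thus differed little on slide 2, which held NOD replicate 3. With slide as a fixed block the log2 changes were 1.71 for Cxcl9, 2.53 for Cxcl10, 2.11 for Ccl5, 2.25 for Ccl8 and 0.89 for Ccl4, all 5 past the threshold, with Ccl4 at an adjusted p of 0.0392 by limma. Without slides 1 and 4, Ccl4 (0.89, adjusted p = 0.116) and Cxcr3 (0.97, adjusted p = 0.0952) did not pass. With the share of spots above background as a covariate, which separates the strains completely, no member passed (limma adjusted p from 0.212 to 0.983, log2 changes 3.11 for Cxcl10, 1.38 for Ccl8, 0.58 for Cxcl9, 0.45 for Ccl5, 0.08 for Ccl4 and -0.54 for Cxcr3). Strain and array brightness cannot be told apart in that fit.

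**Figure D3:**
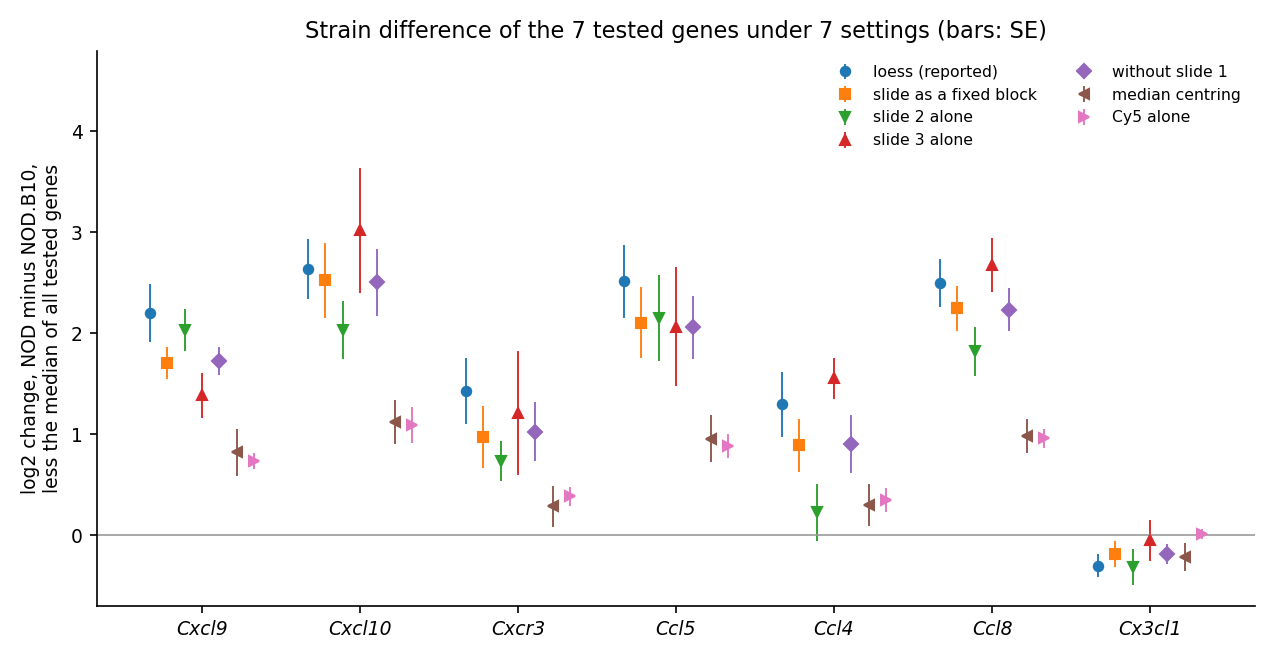
Log2 change, NOD minus NOD.B10, less the median of all tested genes (vertical axis, bars SE) for the 7 tested genes with loess, slide as a fixed block, slide 2 alone, slide 3 alone, without slide 1, with median centring and with Cy5 alone. Cxcl9, Cxcl10, Ccl5 and Ccl8 lie above 0 in every setting shown, with smaller values under median centring and Cy5 alone, and Cx3cl1 lies between -0.32 and 0.01. The scanner's ratios and the covariate fit are not drawn, and there Cx3cl1 was 0.38 and 0.23.

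The size of the change depended on the normalisation. Median centring in place of loess gave log2 changes of 1.56 for Cxcl10, 1.42 for Ccl8, 1.39 for Ccl5, 1.26 for Cxcl9, 0.74 for Ccl4 and 0.72 for Cxcr3, against a median of 0.44 over all tested genes. Cy5 alone gave 1.19, 1.05, 0.98, 0.83, 0.44 and 0.48 for the same genes. The scanner's processed ratios, which carry no offset, gave between 4.96 for Ccl4 and 6.40 for Ccl5. All 6 stayed past the threshold in these 3 settings, whereas the size of the change moved by over 1.5 times. The changes of Cxcl10, Ccl5 and Ccl8 with Cy5 alone, and of Cxcl10 with median centring, lay below the bounds given above. The bounds of Cxcl10, Ccl5 and Ccl8 therefore do not hold under every normalisation.

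Among 19 other inflammatory chemokines, 18 were on the array by symbol, 5 were tested, 1 rose and 3 fell, with a median log2 change of -0.39 against -0.01 over all tested genes. Cxcl16, a ligand of CXCR6 made by macrophages and dendritic cells, rose, with net Cy5 of 53.0, 92.5 and 248.5 (lowest, median, highest) in NOD and 3.0, 8.25 and 22.5 in NOD.B10. It changed by 1.54 ± 0.25 on the log2 scale (SE, n = 6 per strain, limma adjusted p = 0.00056) and was well above background on 6 NOD and 2 NOD.B10 arrays. Without the NOD arrays Cxcl16 would not have reached the filter, so its call carries no weight of its own. The platelet chemokines Ppbp and Pf4 and the myeloid chemokine Ccl9 fell in the ratio, by log2 changes of -1.08, -0.84 and -0.39 (limma adjusted p = 0.00148, 0.00407 and 0.0133). Their unscaled net Cy5 was nonetheless higher in NOD, at medians of 13.75, 13.5 and 14.5, against 4.75, 4.5 and 3.0 in NOD.B10, and no pathway gene was called lower with the scanner's ratios, median centring or Cy5 alone, so no direction is read from them. Ccl6, also of myeloid cells and named after its values were seen, did not pass (log2 change -0.33, limma adjusted p = 0.0757), with median net Cy5 of 11.25 in NOD and 3.0 in NOD.B10. The neutrophil chemokines Cxcl1, Cxcl3 and Cxcl5 and the CC chemokines Ccl1, Ccl7, Ccl11, Ccl17, Ccl20, Ccl22 and Ccl24 were well above background on no array.

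Of 14 other receptors of inflammatory chemokines, 4 were well above background on any NOD array and 0 on any NOD.B10 array, and 2 were tested. Cxcr6, the receptor of Cxcl16 on effector and resident T cells, was higher, with log2 ratios of 0.56 to 1.58 in NOD and -0.15 to 0.10 in NOD.B10 (log2 change 1.15 ± 0.16, SE, n = 6 per strain, limma adjusted p = 0.000283). Ccr6, a receptor of B cells and of some T cells, was also higher (log2 change 0.37 ± 0.12, limma adjusted p = 0.0244), and both had bounds not above 1. Cxcr6 and Ccr6 passed the filter through NOD arrays alone, so their calls carry no weight of their own. Ccr2, the receptor of Ccl2, was well above background on 3 NOD arrays and was not tested. Ccr1 and Ccr3, receptors of Ccl5, had no signal well above background, nor did Ccr8, the receptor of mouse Ccl8, and Cx3cr1, that of Cx3cl1. These spots give no order between the strains.

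All 6 tested genes of 12 in interferon-gamma signalling were higher in NOD (median log2 change 1.48), and Ifngr1 and Jak1 among them were well above background on all NOD.B10 arrays too. The other tested genes reached the 4 arrays of the filter only through NOD arrays, so this count carries no weight of its own. These others include Irf1, a transcription factor induced by interferon-gamma (log2 change 1.94 ± 0.22, SE, n = 6 per strain, limma adjusted p = 6.52e-05). Irf1 was well above background on 6 NOD arrays and 1 NOD.B10 array. Ifngr1, a chain of the interferon-gamma receptor, was well above background on all 12 arrays, with net Cy5 of 151 to 709.5 in NOD and 8.0 to 36.5 in NOD.B10 (log2 change 2.30 ± 0.33, 4.91-fold, limma adjusted p = 0.000272). Socs1, a feedback inhibitor of the pathway, had a log2 change of 0.67 (limma adjusted p = 0.000978). Jak1 and Irf8, named after their values were seen, had 1.42 and 0.65. Socs1 and Irf8 passed the filter through NOD arrays alone, so their calls carry no weight of their own. Across all tested genes 18.8% were higher. Ifng, the cytokine itself, was well above background on 2 NOD arrays and 0 NOD.B10 arrays and was not tested. Of 11 genes of TNF and NF-kB signalling, 10 were on the array by symbol, 3 were tested, 2 were higher and 0 lower. Nfkbia, the inhibitor induced by NF-kB, had a log2 change of 1.39 ± 0.23 (SE, n = 6 per strain, limma adjusted p = 0.000553). Normalised Cy5 of Tnfaip3, another such inhibitor, was at least 1.17-fold higher. Tnfaip3 too passed the filter through NOD arrays alone. Nfkbia, well above background on 6 NOD and 2 NOD.B10 arrays, would not have passed without the NOD arrays, so neither call carries weight of its own. Tnfrsf1a, a TNF receptor, did not pass (log2 change 0.04, limma adjusted p = 0.703), and Tnf was well above background on no array.

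**Figure D4:**
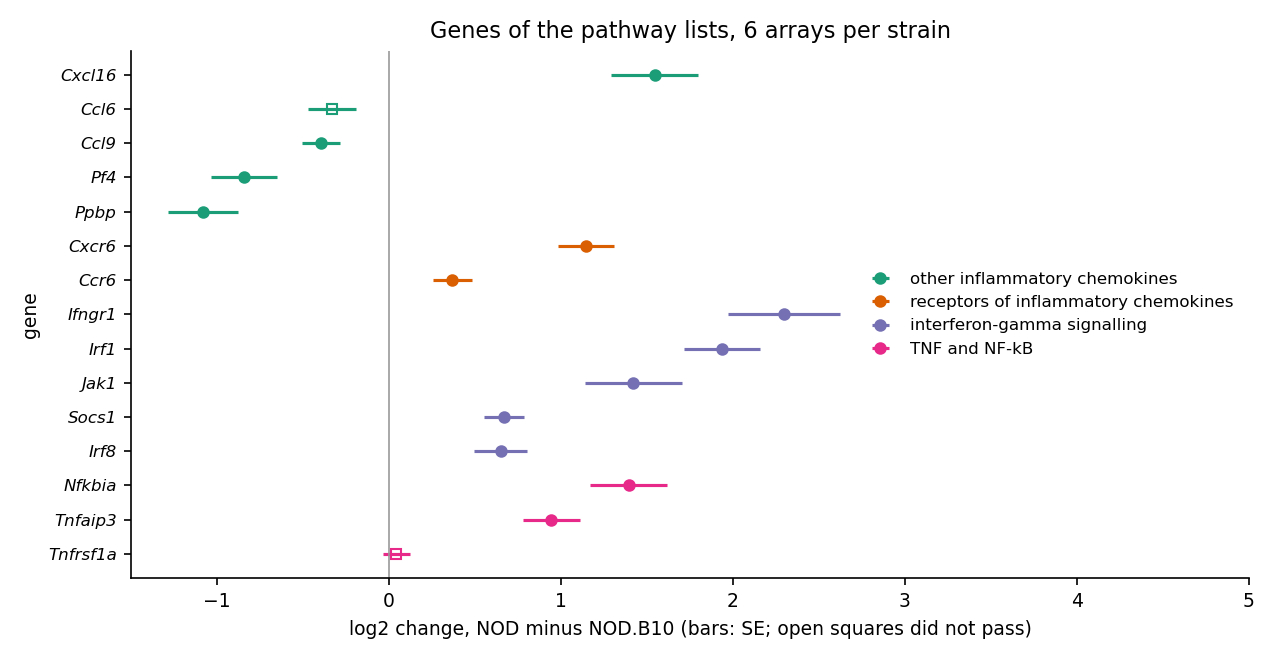
Log2 change, NOD minus NOD.B10 (horizontal axis, bars SE, 6 arrays per strain), of 15 tested genes of the 4 pathway lists, with filled circles for genes past the threshold. The 5 interferon-gamma signalling genes drawn lie right of 0, from 0.65 (Irf8) to 2.30 (Ifngr1), and 4 of the 5 other chemokines lie left of it, although their median net Cy5 was higher in NOD, so no direction is read from those 4.

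Leukocyte markers, summed by list, were also higher in NOD. Net Cy5 is unscaled, so these sums also carry the brightness of the arrays. Summed net Cy5 of 7 T cell markers was 24.9 to 203 in NOD and -15.2 to 15.4 in NOD.B10. Of these 7, 4 (Cd3e, Cd3g, Cd2 and Cd4) were well above background on no array. For 7 cytotoxic and NK markers the sums were 63.5 to 406 in NOD and -3.0 to 13.5 in NOD.B10, and Gzma, Gzmk and Prf1 were well above background on no array. For 5 B and plasma cell markers they were 303 to 2196 in NOD and 3.0 to 19.5 in NOD.B10 (Cd79a on no array). The 8 macrophage and dendritic cell markers summed to 905.5 to 4897 in NOD and 45.5 to 107.5 in NOD.B10, with C1qa and C1qb on no array. Lyz2 alone had a median net Cy5 of 1889 in NOD, beside a median sum of 2405.5. Of 5 tested, 4 were higher, against 18.8% of all tested genes, and Adgre1 was not called (log2 change -0.07, limma adjusted p = 0.718). Adgre1, Itgax and C1qc reached the filter only through NOD arrays, so this count carries no weight of its own. The tested T cell, cytotoxic and B cell markers (3 of each list) passed the filter through NOD arrays alone, so their calls are not counted here. The leukocyte sums did not overlap between the strains, and the part of infiltrating cells in the chemokine differences was not tested. Endothelial markers summed to 236 to 560 in NOD and 70.5 to 3459 in NOD.B10, with neither of the tested Kdr and Plvap passing. Beta cell markers summed to 3732 to 28370 in NOD and 11338 to 27639 in NOD.B10, with 3 of 5 tested lower and 0 higher. Acinar markers summed to 224.5 to 2531 in NOD and 162 to 9014 in NOD.B10, with 3 of 4 tested lower. Median sums in NOD and NOD.B10 were 13607 and 15410 for beta cell markers, and 665 and 577 for acinar markers. Across all tested genes 18.1% were called lower, and with median centring 0 were. No direction is read from the beta cell and acinar calls.

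The genes whose pattern lay nearest to each tested member were found as the smallest root mean square difference of log2 ratios, each centred on its own mean, over the 12 arrays. For Cxcl9 these were Gbp2 (0.29), Irf1 (0.32) and Mcm6 (0.36), and for Ccl8 Mpeg1 (0.26), Gbp2 (0.26) and St8sia4 (0.28). For Ccl5 they were Mfge8 (0.28), Ptprcap (0.30) and Pou2af1 (0.31), and for Cxcr3 Rps21 (0.19), Nckap1l (0.23) and Traf1 (0.24). For Ccl4 they were Fyb (0.28), Serpinb6b (0.37) and Wfdc17 (0.38). Cxcl10 had no gene as near: its closest were Igtp (0.53), Gbp3 (0.60) and Junb (0.60). Cx3cl1 was near to Pink1 and Cavin3, both at 0.09. Its own log2 ratios varied less, with an SD of 0.23 over the 12 arrays against 1.48 for Cxcl10, so its small differences do not mark a closer match. The measure includes the strain difference, so near genes share the member's change by construction.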

How the data were processed

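Laser-captured, amplified islet RNA of 6 NOD and 6 NOD.B10 mice (Cy5) was hybridised with a common reference (Cy3) on 12 Agilent 2-colour arrays, 1 per mouse. Per the file headers, the authors ran Feature Extraction 10.5.1.1, and the deposited intensity values are median signals and local backgrounds of each spot, not normalised. The same files hold a processed log10 ratio, background-subtracted and dye-normalised per the file headers. The deposited series table is the log2 of processed Cy5 over Cy3 (100% of values equal within 0.001) and was not used otherwise. No spot was saturated. The median signals stand in for means, which the files do not hold.

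Background was corrected with normexp (offset 50), followed by loess within arrays, in limma 3.58.1 (R 4.3.3). For the bounds, the mean log intensities of both channels were then quantile normalised between arrays, and Cy5 was taken from these and the ratios. Spots of a probe were averaged. A probe counted as well above background where at least 50% of its spots were marked so. Genes (brightest passing probe, 3920 in all from 41174 non-control probes) were compared with lmFit and eBayes, NOD minus NOD.B10, and adjusted by Benjamini-Hochberg at 0.05. Where p values are given as adjusted, they are limma's unless named. Precision is limited by the number of arrays and by signal over background. The mice of a strain are the replicates.

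No pairing by replicate number was used in the main fit. Same-numbered arrays correlated between -0.15 and 0.21 after removal of strain means, which cannot decide whether the mice were paired. The members, pathway lists and marker lists were chosen with earlier results of these data known. Besides all 9 members, up to 4 tested genes with the smallest p of each pathway list and the 3 nearest genes of each tested member were named, and a few genes that this rule names are not reported here. Sequences are RefSeq promoter windows of GRCm38.p6, found for 6 of the 9 members. The alternatives were other normalisations, filters and probe rules, slide as a block, single slides, arrays left out and the share of spots above background as a covariate. Omission of slide 1, and of slides 1 and 4, was added after the data were seen. The fit was tested on simulated data.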

Additional observations from a re-analysis of the deposited data

Results flagged for a closer look

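Cxcl10 on NOD.B10 replicate 5 had a log2 ratio of -0.33, far from the other 5 NOD.B10 arrays, the nearest of which stood at -0.07 (the gap was 0.707 of the group's range, above Dixon's critical value for 6 samples). Its net Cy5 there was -5.0, not well above background. A total of 18 groups of 6 arrays was examined, and chance alone marks about 1 in 20.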

How the results depend on the processing

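The 6 members called higher stayed 6 with every single array left out (6 to 6). They numbered 3 on slide 2 alone, 0 on slide 3 alone and 0 with the share of spots above background as a covariate, settings with 2 mice per strain or with a covariate that separates the strains. The 1 member called lower, Cx3cl1, was 0 with the scanner's ratios, median centring, Cy5 alone, no filter, slide as a fixed or random block, without slide 4, slide 2 alone, slide 3 alone, the covariate, without slide 1, and without slides 1 and 4, and 0 to 1 with arrays left out. Its log2 change was 0.85, 0.22 and 0.11 with the scanner's ratios, median centring and Cy5 alone, and 0.21 with the covariate, under which Cxcr3 was -0.54. The cause was not tested.

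Of all genes, 735 were higher and 708 lower. The higher count was 1978 with median centring, 361 with slide as a fixed block, 38 on slide 2, 1 on slide 3, 3 with the covariate, 481 without slide 1 and 303 without slides 1 and 4. The lower count was 313 with the scanner's ratios, 0 with median centring (2 at an unadjusted p under 0.05), 247 with Cy5 alone, 1392 without the filter, 354 with slide as a fixed block, 46 on slide 2, 1 on slide 3, 0 with the covariate (138 unadjusted), 460 without slide 1 and 271 without slides 1 and 4. With arrays left out the counts ran from 601 to 851 and from 577 to 808. The 11 pathway list genes called higher numbered 2 on slide 2, 0 on slide 3 and 0 with the covariate (10 to 11 with arrays left out), and the 3 called lower numbered 0 with the scanner's ratios, median centring, Cy5 alone, slide 2, slide 3 and the covariate (3 to 3 with arrays left out).

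With the replicate number as a block, 6 members were higher and 0 lower, 638 and 597 of all genes, and 11 and 2 of the pathway genes. Among the members, whose log2 changes stay as reported, the block ended the call of Cx3cl1 alone (adjusted p = 0.0883). The labels give no pairing by number. Of 6 NOD arrays, 2 correlated best with the NOD.B10 array of their own number, which cannot decide whether the mice were paired. Of the single-gene values under all alternatives, 142 kept direction and side of the threshold, 37 kept direction but did not pass, 5 turned sign and 4 bounds moved by more than the spread between arrays (that of Ccl5 moved by over 1.5 times but within this spread). With the lowest signal above background as the floor, bounds were 4.37-fold for Cxcl10, 4.01-fold for Ccl5, 3.17-fold for Cxcl9, 3.94-fold for Ccl8, 1.93-fold for Ccl4 and 2.12-fold for Cxcr3. Because no NOD.B10 array read a member above background, the size of each change rests on that floor and on the normalisation.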
